A study of Homo sapiens with 18 samples.

Results

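Nucleolar and ribosome biogenesis genes were followed across an AHR knockdown experiment in neuroblastoma cells. The set held 45 genes, listed for their known role in MYC-driven rRNA synthesis and processing. They were listed when earlier results of these data were known, and all 45 were found among the 39368 genes counted. RNA sequencing was done in 2 established human lines, BE2C and Kelly, grown from neuroblastoma and described by the study as MYCN-amplified; BE2C is itself a clonal subline. In each line, 3 libraries carried the vector pLKO-GFP as control, 3 carried shAhR-1 and 3 carried shAhR-2, both of them short hairpin RNAs directed against AHR, which gave 6 groups and 18 libraries. AHR is the gene of the aryl hydrocarbon receptor, which switches on genes when a ligand binds it, and the series title asks whether it keeps such cells less differentiated. pLKO is a lentiviral hairpin backbone, and the time after infection, the hairpin sequences and whether the control carried a hairpin without a target are details not given in the sources used here. Nothing in the labels says that replicate libraries were grown as separate cultures, so the p-values reflect library-to-library spread, which may be technical.

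Ribosomes are built in the nucleolus. RNA polymerase I transcribes the ribosomal DNA repeats into a long precursor, small nucleolar ribonucleoproteins (snoRNPs) of the box C/D and box H/ACA classes guide methylation and pseudouridylation of it, and assembly factors, helicases and GTPases fold and cut it into the small and large subunits. Genes for these proteins are textbook targets of MYC and MYCN, and their output is high in fast-growing cells, neuroblastoma among them. Ribosomal RNA itself was removed before the libraries were made (RiboErase), so the values below are messenger RNA levels of the factors and say nothing of rRNA output.

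Libraries held 32799682 to 45469353 counts. AHR counts were low: 4, 4 and 6 in the BE2C controls, 8, 0 and 0 with shAhR-1 and 0, 0 and 0 with shAhR-2. In Kelly they were 4, 26 and 29 in the controls, 18, 11 and 22 in the libraries labelled shAhR-1 and 0, 4 and 0 with shAhR-2. AHR did not pass the filter on low counts in BE2C, so its level checks no label there, and in Kelly it was lower with shAhR-2 (−3.84 ± 0.81 on the log2 scale) but not in the libraries labelled shAhR-1 (−0.097 ± 0.54, edgeR quasi-likelihood adjusted p = 0.889). Directions given for that Kelly group and for both BE2C hairpin groups therefore rest on the label alone. The first of the 3 BE2C shAhR-2 libraries stood apart from the other two, with a chi-square per degree of freedom of 20.9 and 22.8 against them where the other pairs of replicates gave 2.81 to 6.59. Mitochondrial transcripts took 14.5% to 25.1% of counts, with means of 19.1%, 24.5% and 22.03% in the control, shAhR-1 and shAhR-2 groups of BE2C and 15.2%, 17.5% and 15.5% in Kelly. The BE2C shAhR-2 library that stood apart was at 25.1%, and the others of its group were at 20.5% and 20.5%. All 9 listed neuroblastoma markers were detected. Their summed level ran from 3329 to 3439.9 CPM (counts scaled to library size) in the BE2C controls, 3121 to 3183 with shAhR-1 and 1751 to 1804 with shAhR-2, and from 5752 to 6066, 3188 to 3254 and 3193 to 3240.3 CPM in the same order in Kelly. Over the 8 fibroblast markers, of which FAP was at 0 in both control groups, the sums were 165 to 169, 174 to 183 and 290.2 to 302 CPM in BE2C and 117 to 124, 81.2 to 93.6 and 113 to 114 CPM in Kelly. The sums of 7 Schwann cell markers were 2.33 to 3.35, 2.07 to 2.96 and 12.7 to 13.6 CPM in BE2C and 2.96 to 3.35, 2.38 to 2.81 and 7.52 to 7.85 in Kelly, and those of 4 endothelial markers 1.05 to 1.75, 0.392 to 1.09 and 7.53 to 8.79 and 2.79 to 3.59, 1.05 to 1.48 and 5.20 to 5.69. The leukocyte list reached at most 0.999 CPM in any library, and CDH19 and HLA-DRA were at 0 in all 6 groups.

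The summed level of the ribosome biogenesis genes was below control in all 4 hairpin-labelled groups, and furthest below it in BE2C with shAhR-2. Single members departed from this, among them NPM1, the nucleolar histone chaperone nucleophosmin, which rose in Kelly with shAhR-2. Summed over the 45 members, the level was 11474 ± 10.2 CPM (mean ± SD, n = 3) in the BE2C controls, 9597 ± 35.97 with shAhR-1 and 6088 ± 59.1 with shAhR-2. In Kelly the sums were 10115 ± 72.5 CPM in the controls, 8373 ± 117 in the libraries labelled shAhR-1 and 9060.2 ± 62.9 with shAhR-2. In each line every control library lay above every hairpin library, and the order of the hairpins was opposite in the lines. These sums are 83.6% ± 0.312 and 53.1% ± 0.515 of the control mean in BE2C with shAhR-1 and shAhR-2, and 82.8% ± 1.15 and 89.6% ± 0.625 in Kelly. The Kelly order of the sums rests on NPM1, at 1602 ± 49.6 CPM in the libraries labelled shAhR-1 and 2364 ± 24.4 with shAhR-2. That gap is wider than the gap between the sums. The members' median log2 change in Kelly was −0.22 in the libraries labelled shAhR-1 and −0.30 with shAhR-2. In bulk RNA, fewer cells that express a gene and less of its RNA per cell cannot be told apart. MYCN was also lower in all 4 comparisons, with changes of −0.26 ± 0.024 and −0.96 ± 0.024 (log2, shAhR-1 and shAhR-2) in BE2C and of −0.99 ± 0.026 and −0.61 ± 0.026 in Kelly, and the neuroblastoma marker sum was lower beside it. The fibroblast, Schwann cell and endothelial sums were each highest in the BE2C shAhR-2 libraries, where the members' sum was lowest. Single markers did not all follow their sums. From BE2C controls to shAhR-2 the mean of COL3A1 went from 3.95 to 39.4 CPM and that of LUM from 49.5 to 36.3. The endothelial rise lay mainly in VWF, at 0.672 and 7.03 CPM. The part of MYCN or of any marker sum in the members' levels was not tested.

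**Figure D1:**
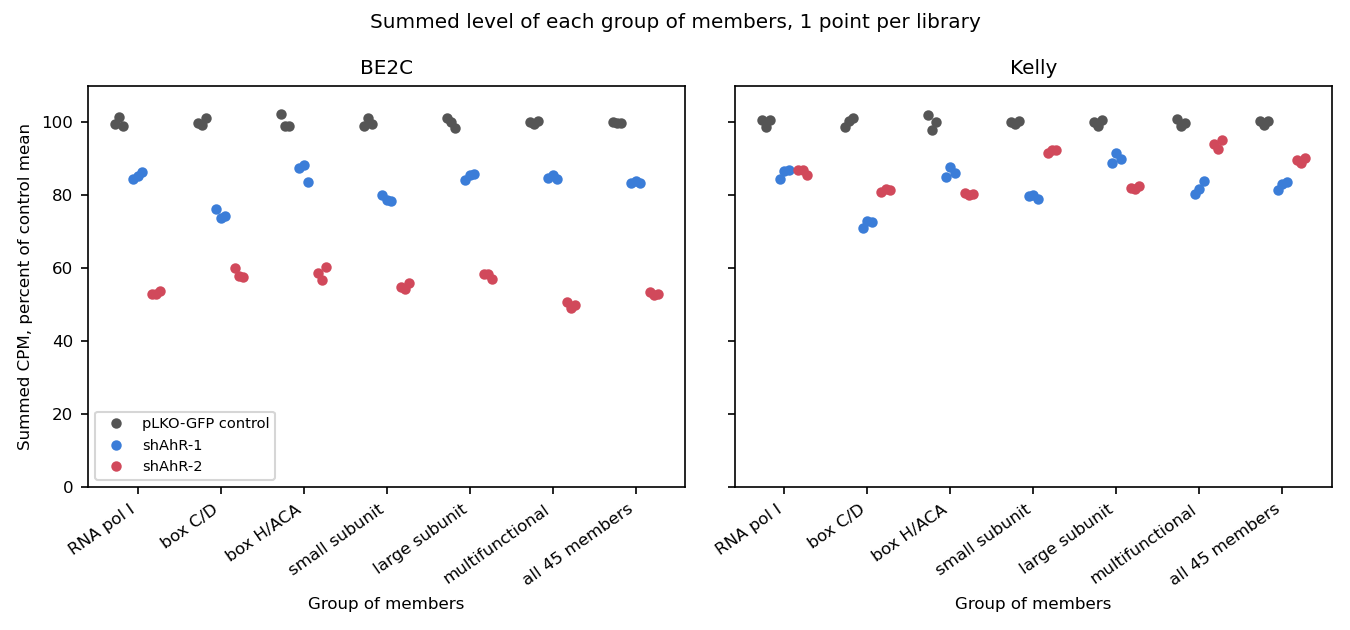
Summed CPM of each functional group of members and of all 45 in every library, as percent of the mean of the 3 vector controls of the same line (y axis starts at 0; 1 point per library; grey control, blue shAhR-1, red shAhR-2; the blue Kelly points are the libraries labelled shAhR-1). In BE2C the shAhR-2 points lie between 49.2% and 60.2% in every group, while in Kelly they lie between 80.1% and 95.1%.

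Gene by gene, all 45 members passed the filter on low counts in both lines, with a lowest single count of 116 (NOP2). Each was tested with edgeR's quasi-likelihood test over all genes, and a member is called higher or lower below a Benjamini-Hochberg adjusted p of 0.05. With shAhR-1 in BE2C 33 members fell and 2 rose, where 27.1% of all 15732 tested genes fell and 25.2% rose; the median log2 change was −0.26 for the members and 0.0082 for all genes. With shAhR-2 in BE2C 44 fell and 1 rose, against a background of 37.2% and 38.0%, and the medians were −0.83 and 0.035. Nearly the whole set was therefore called lower in that comparison, and the counts were also 44 and 1 without the BE2C shAhR-2 library that stood apart. In the Kelly libraries labelled shAhR-1 32 fell and 6 rose (background 31.0% and 29.6% of 15871 genes; medians −0.22 and 0.0034). With shAhR-2 in Kelly 31 fell and 6 rose (background 38.2% and 37.2%; medians −0.30 and −0.0060). Values at least 2-fold below control were found for 16 members in BE2C with shAhR-2, where 9.85% of all genes were so low, and for 1 member, NHP2, in Kelly with shAhR-2, where 13.0% were. With shAhR-1 there was none in either line, beside 3.72% of all genes in BE2C and 5.83% in Kelly. PPAN, in Kelly with shAhR-2, was the 1 member at least 2-fold higher, where 13.2% of all genes were; in BE2C with shAhR-1 and shAhR-2 and in the Kelly libraries labelled shAhR-1 the shares of all genes were 5.63%, 19.1% and 5.48%. The 2 comparisons of a line share their control libraries, so their values are given side by side and not as an overlap.

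**Figure D2:**
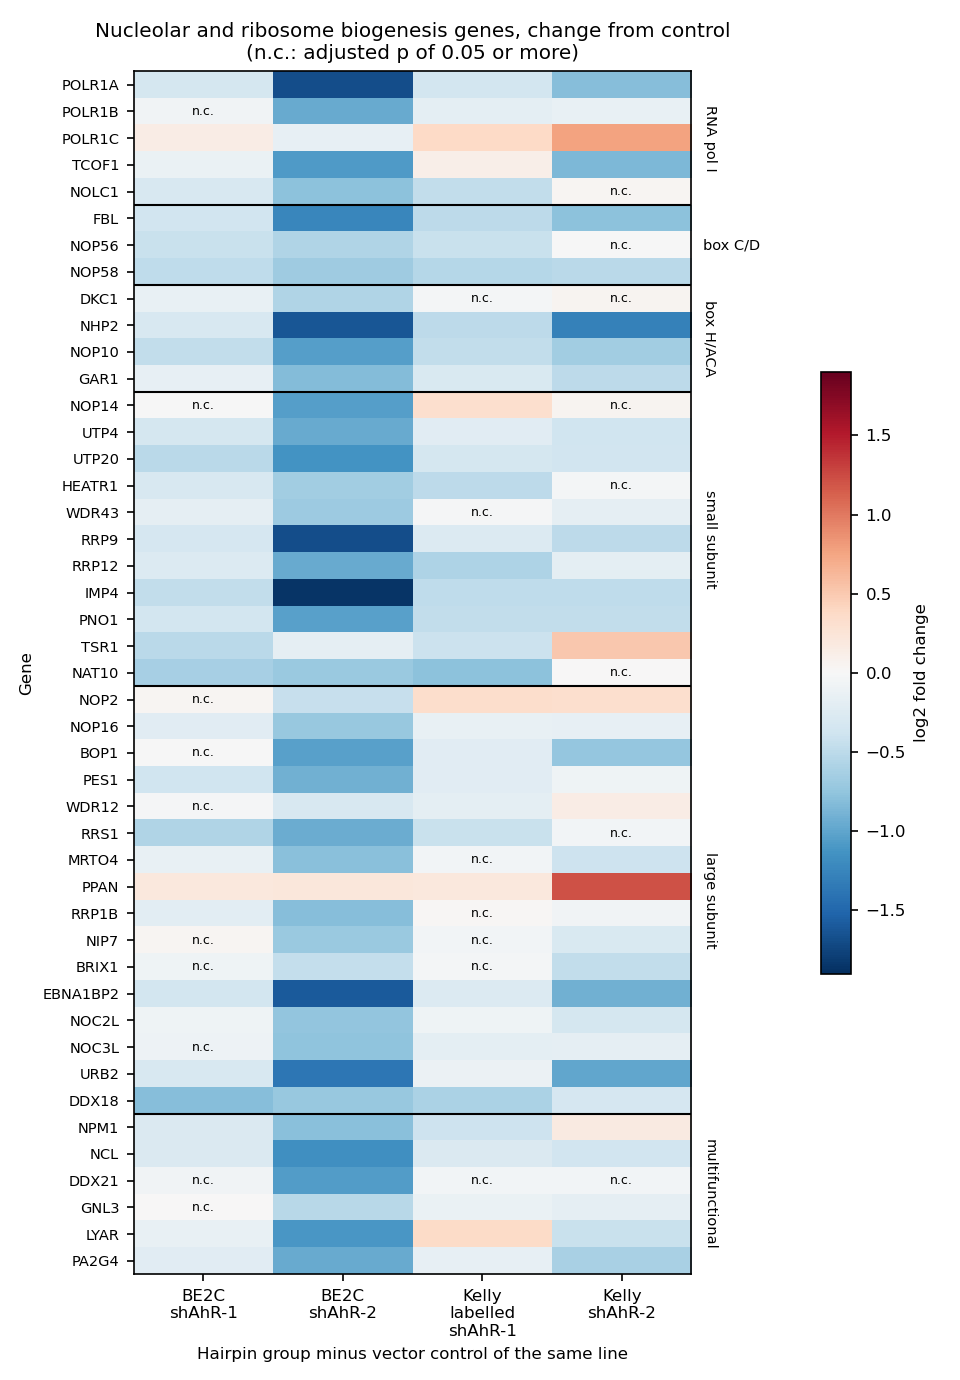
Log2 change of each of the 45 members (rows, by functional group) relative to that line's vector controls, in 4 comparisons (columns); n.c. marks an adjusted p of 0.05 or more. The BE2C shAhR-2 column is blue throughout except for PPAN, at 0.21, and runs down to −1.86 for IMP4, while the other 3 columns mix smaller falls with POLR1C and PPAN above 0.

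The lines share no library, so their calls can be set side by side. For shAhR-1 27 members fell in both lines, which is 81.8% of those fallen in BE2C and 84.4% of those fallen in Kelly, and POLR1C and PPAN rose in both. With 33 of the 45 members fallen in BE2C and 32 in Kelly, much of this overlap follows from the counts alone. The share of all genes fallen in both lines was not counted. For shAhR-2 all 31 members that fell in Kelly also fell in BE2C, where they made up 70.5% of the fallen, and PPAN rose in both. With 44 of the 45 members fallen in BE2C, that overlap follows nearly from the counts alone. The members not called in BE2C with shAhR-1 were POLR1B, NOP14, NOP2, BOP1, WDR12, NIP7, BRIX1, NOC3L, DDX21 and GNL3. In the Kelly libraries labelled shAhR-1 they were DKC1, WDR43, MRTO4, RRP1B, NIP7, BRIX1 and DDX21, and in Kelly with shAhR-2 NOLC1, NOP56, DKC1, NOP14, HEATR1, NAT10, RRS1 and DDX21.

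**Figure D3:**
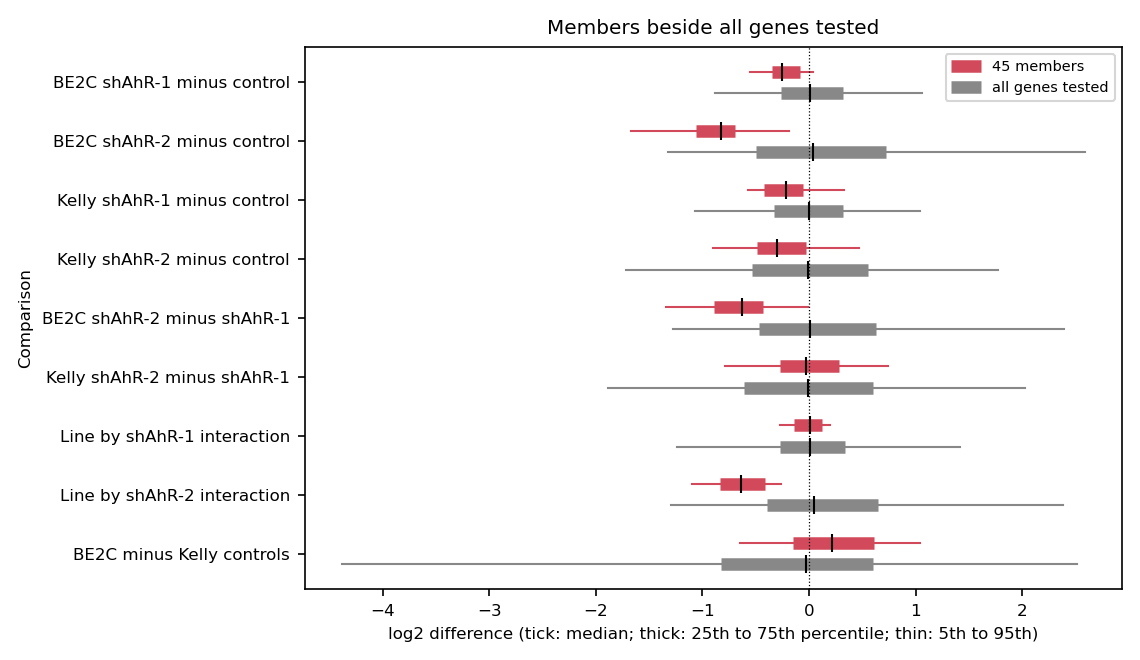
Log2 differences of the 45 members (red) and of all genes tested (grey) in the 9 comparisons; ticks are medians, thick bars the 25th to 75th and thin bars the 5th to 95th percentiles. The members' median is −0.83 in BE2C with shAhR-2 and −0.64 for the line by shAhR-2 interaction, where the medians of all genes are 0.035 and 0.047.

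The members' promoters were read from RefSeq on GRCh38.p14, as the 300 bases from 250 before to 50 after each start. Of the 45 members 36 were matched. For them and for the other ribosome biogenesis genes, the first listed promoter of each gene was read. The shares of all promoters and of genes tested in BE2C count every listed promoter. The E-box CACGTG, the textbook binding sequence of MYC family proteins and its own reverse complement, was present in 15 of these 36 (41.7%), against 7.26% of all 35116 promoters, 9.08% of those of genes tested in BE2C and 22.7% of 119 promoters of other ribosome biogenesis genes. GCGTG on either strand, the core of the sequence bound by the aryl hydrocarbon receptor, was in 25 of 36 members (69.4%), 36.5% of all promoters, 47.5% of those tested in BE2C and 72.3% of the other ribosome biogenesis genes. Members' promoters were also richer in CpG than all promoters, with a median of 26 CpG against 14. The median was 24 for tested genes and 25 for the other ribosome biogenesis genes, and both motifs hold a CpG. Members with the E-box had a median log2 change of −1.04 in BE2C with shAhR-2 and −0.38 in Kelly with shAhR-2, and those without it −0.71 and −0.16; with shAhR-1 the pairs of medians were −0.34 and −0.14 in BE2C and −0.26 and −0.15 in Kelly. A match is a description of the sequence and not evidence of binding. The members were listed as MYC-driven genes, so their share of E-boxes cannot be told apart from that choice. A part of the E-box in the changes was not tested. The stretches around the E-box upstream of the start are shown for 6 members described below, among them the member with the largest fall in BE2C, 5′ to 3′ on the gene's strand with CACGTG in capitals. They lie at chr15:34343137-34343191 (minus strand) for NOP10, chr16:69132589-69132648 (plus strand) for UTP4, chr12:101280051-101280104 (plus strand) for UTP20, chr2:130342650-130342729 (plus strand) for IMP4, chr11:34105570-34105628 (plus strand) for NAT10 and chr1:43172772-43172820 (minus strand) for EBNA1BP2. The E-box shown starts 11, 16, 10, 203, 15 and 237 bases before the RefSeq start in that order. NOP10 has another, 170 bases before the start, and IMP4 another, 15 bases after it.
NOP10: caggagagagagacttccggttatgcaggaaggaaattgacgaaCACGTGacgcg
UTP4: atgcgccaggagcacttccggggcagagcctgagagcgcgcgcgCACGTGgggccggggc
UTP20: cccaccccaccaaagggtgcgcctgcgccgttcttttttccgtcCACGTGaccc
IMP4: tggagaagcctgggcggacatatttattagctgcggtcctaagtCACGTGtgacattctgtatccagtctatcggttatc
NAT10: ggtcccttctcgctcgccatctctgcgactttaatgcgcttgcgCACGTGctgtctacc
EBNA1BP2: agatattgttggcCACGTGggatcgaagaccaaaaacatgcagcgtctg

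Among the 5 members that act in transcription of ribosomal DNA, POLR1A fell in all 4 comparisons, while POLR1C rose except in BE2C with shAhR-2, where it fell. The group summed to 85.5% ± 1.02 and 53.2% ± 0.438 of control in BE2C with shAhR-1 and shAhR-2, and to 86.1% ± 1.32 and 86.6% ± 0.779 in Kelly. NOLC1, the most abundant of the 5, weighs on these sums. Its mean was 394 CPM in Kelly controls and 406 with shAhR-2, where POLR1A, POLR1B and TCOF1 fell and POLR1C rose. POLR1A (chromosome 2, 86020216 to 86106155, minus strand, GENCODE release 29 on GRCh38), the largest catalytic subunit of RNA polymerase I, was at 140.1, 144 and 136 CPM in the BE2C controls, 107, 109 and 115 with shAhR-1 and 41.2, 47.2 and 42.6 with shAhR-2. In Kelly its level was 105, 103 and 107 CPM in controls, 82.7, 84.3 and 82.05 in the libraries labelled shAhR-1 and 60.6, 62.2 and 57.9 with shAhR-2. The 3 groups of each line did not overlap, with controls highest and shAhR-2 lowest in both. The log2 changes were −0.34 ± 0.042 and −1.68 ± 0.045 in BE2C and −0.34 ± 0.037 and −0.80 ± 0.038 in Kelly for shAhR-1 and shAhR-2.

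POLR1B, the second subunit of the catalytic core, was at 106, 112 and 103 CPM in BE2C controls, 104, 99.8 and 102 with shAhR-1 and 55.6, 52.5 and 57.1 with shAhR-2. Controls and shAhR-1 overlapped and all 3 shAhR-2 libraries were lower. Kelly had 73.1, 72.96 and 76.6 CPM in controls, 62.9, 66.6 and 65.4 in the libraries labelled shAhR-1 and 68.4, 66.9 and 67.5 with shAhR-2, a small fall without overlap in both. POLR1B changed by −0.96 ± 0.042 in BE2C with shAhR-2 and by −0.19 ± 0.040 and −0.13 ± 0.040 in Kelly; shAhR-1 in BE2C gave −0.071 ± 0.041, not called. POLR1C, a subunit shared by RNA polymerases I and III, was at 36.98, 37.8 and 39.2 CPM in BE2C controls, 43.8, 41.02 and 41.2 with shAhR-1 and 33.4, 32.04 and 36.5 with shAhR-2, and at 34.3, 34.01 and 32.4, 41.9, 45.02 and 44.5 and 57.5, 58.1 and 54.8 in the same groups of Kelly. Both hairpin groups exceeded the controls in Kelly, whereas in BE2C shAhR-1 lay just above them and shAhR-2 just below, without overlap. Its changes were 0.14 ± 0.056 and −0.16 ± 0.056 in BE2C and 0.38 ± 0.050 and 0.76 ± 0.049 in Kelly; the rise in BE2C was not called when control 1 or 2 or shAhR-1 library 1 or 3 was left out (adjusted p = 0.0296 with all), nor the fall without shAhR-2 library 2, and 11.1% of its exonic bases are shared with other genes.

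TCOF1 encodes treacle, a nucleolar protein needed for ribosomal DNA transcription. It was at 239, 242 and 237 CPM in BE2C controls, 217, 217 and 223 with shAhR-1 and 111, 115 and 113 with shAhR-2, and at 215, 201 and 209, 222, 232 and 219 and 117, 118 and 111 in Kelly. With shAhR-2 it fell to about the same level in both lines, and the libraries labelled shAhR-1 lay below the controls in BE2C and above them in Kelly. The changes were −0.13 ± 0.031 and −1.08 ± 0.032 in BE2C and 0.11 ± 0.032 and −0.85 ± 0.033 in Kelly, and the Kelly rise was not called without the second library labelled shAhR-1. NOLC1, a phosphoprotein that escorts snoRNPs to the nucleolus, fell by 0.30 and 0.77 (log2) in BE2C and by 0.46 in the Kelly libraries labelled shAhR-1, and was not called in Kelly with shAhR-2 (0.042 ± 0.028).

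**Figure D4:**
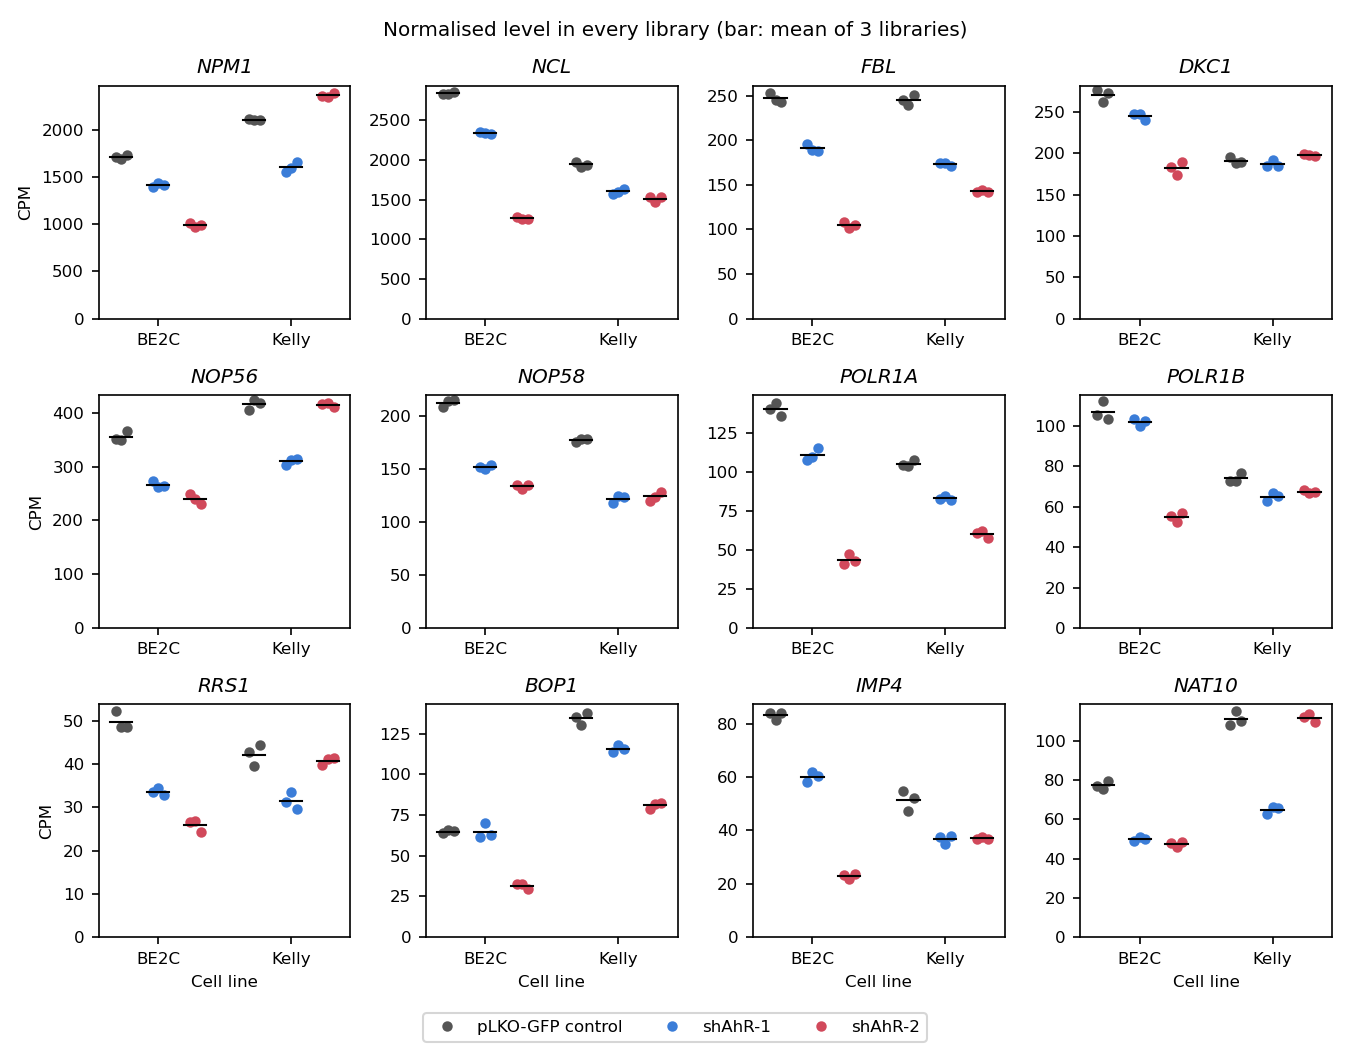
CPM of 12 members in every library (dots; grey control, blue shAhR-1, red shAhR-2; bars are means of 3; y axes start at 0 and differ between panels). In BE2C the shAhR-2 dots are the lowest for all 12 genes; in Kelly they are above the controls for NPM1 and DKC1, among the controls for NOP56, RRS1 and NAT10, and below them for the other 7.

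The 3 core proteins of box C/D snoRNPs fell in BE2C with both hairpins and in the Kelly libraries labelled shAhR-1, and FBL and NOP58 also fell in Kelly with shAhR-2. This was the group with the lowest sum in shAhR-1 libraries, at 74.7% ± 1.27 of control in BE2C and 72.2% ± 0.964 in Kelly. FBL (chromosome 19, 39834458 to 39846414, minus strand), the methyltransferase fibrillarin, was at 253, 245 and 242 CPM in BE2C controls, 196, 189 and 188 with shAhR-1 and 108, 102 and 104 with shAhR-2. Its Kelly levels were 245, 239 and 251 CPM in controls, 175, 175 and 171 in libraries labelled shAhR-1 and 142, 144 and 141 with shAhR-2. No 2 groups of a line overlapped for FBL, and shAhR-2 was lowest in both lines. FBL changed by −0.37 ± 0.033 and −1.24 ± 0.034 in BE2C and by −0.50 ± 0.030 and −0.78 ± 0.030 in Kelly.

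NOP56 and NOP58 are the paired scaffold proteins of the same particle. NOP56 was at 351, 349.6 and 367 CPM in BE2C controls, 273, 262 and 264 with shAhR-1 and 248, 239.6 and 231 with shAhR-2, and at 406, 424 and 418, 304, 312 and 314 and 416, 418 and 412 CPM in Kelly. In Kelly the shAhR-2 libraries lay among the controls, and the libraries labelled shAhR-1 were all lower. The NOP56 changes were −0.42 ± 0.032 and −0.57 ± 0.032 in BE2C and −0.42 ± 0.027 and −0.0015 ± 0.027 in Kelly, the last not called. NOP58 was at 209, 215 and 215 CPM in BE2C controls, 152, 149.9 and 154 with shAhR-1 and 135, 132 and 135 with shAhR-2, and at 176, 179 and 178, 118, 125 and 124 and 120.3, 124 and 129 in Kelly. Every hairpin library was below the controls, and the 2 Kelly hairpin groups overlapped each other. Its Kelly changes were −0.54 ± 0.033 and −0.51 ± 0.032.

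Of the 4 core proteins of box H/ACA snoRNPs, which also belong to telomerase, NHP2, NOP10 and GAR1 fell in all 4 comparisons. Their group summed to 58.6% ± 1.67 of control in BE2C with shAhR-2 and to 80.3% ± 0.271 in Kelly with shAhR-2. DKC1, the pseudouridine synthase dyskerin, was at 276, 263 and 273 CPM in BE2C controls, 247, 248 and 241 with shAhR-1 and 184, 174 and 189 with shAhR-2. In Kelly DKC1 was at 195, 188 and 189.6 CPM in controls, 185, 192 and 184 in the libraries labelled shAhR-1 and 199, 198 and 196 with shAhR-2. The BE2C groups were separate and in descending order, while in Kelly controls overlapped the libraries labelled shAhR-1 and shAhR-2 lay slightly above both. DKC1 changed by −0.14 ± 0.033 and −0.57 ± 0.033 in BE2C and was not called in Kelly (−0.031 ± 0.030 and 0.050 ± 0.030), although shAhR-2 was called with RLE size factors, with a mean CPM filter and by DESeq2. NHP2, an RNA-binding core protein, stood at 58.8, 64.3 and 55.97 CPM in BE2C controls, 48.02, 50.8 and 45.6 with shAhR-1 and 19.5, 19.5 and 18.9 with shAhR-2, and at 81.6, 76.97 and 79.5, 55.3, 56.9 and 56.4 and 32.7, 32.1 and 32.98 in Kelly. All groups were separate, with the same order of control, shAhR-1 and shAhR-2 in both lines. The fall with shAhR-2, −1.63 ± 0.058 in BE2C and −1.28 ± 0.044 in Kelly, was the largest of the 45 members in Kelly; 27.4% of its exonic bases overlap RMND5B, and the strand setting of the counts is not given in the sources used here. NOP10, for which a promoter E-box is shown above, changed by −0.46 ± 0.049 and −1.04 ± 0.050 in BE2C and by −0.47 ± 0.048 and −0.66 ± 0.048 in Kelly. GAR1 changed by −0.15 ± 0.054 and −0.83 ± 0.056 in BE2C and by −0.30 ± 0.053 and −0.49 ± 0.053 in Kelly, and its BE2C shAhR-1 call was lost without control 1 or without shAhR-1 library 3.

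The small subunit assembly factors IMP4 and RRP9 had the largest falls of the set in BE2C with shAhR-2. Of 11 such members 10 fell with shAhR-1 and 11 with shAhR-2 in BE2C, and 9 and 7 did so in Kelly, where 1 rose with each: NOP14 in the libraries labelled shAhR-1 and TSR1 with shAhR-2. Of all genes tested 27.1% and 37.2% fell in BE2C and 31.0% and 38.2% in Kelly, in the same order. In Kelly 29.6% and 37.2% of all genes rose. IMP4 (chromosome 2, 130342225 to 130347810, plus strand), a component of the processome that makes the early cuts in the precursor, was at 84.1, 81.5 and 84.1 CPM in BE2C controls, 58.00, 61.8 and 60.4 with shAhR-1 and 23.2, 21.8 and 23.6 with shAhR-2. Its Kelly values were 54.98, 47.5 and 52.3 CPM in controls, 37.7, 35.04 and 37.97 in the libraries labelled shAhR-1 and 36.8, 37.6 and 36.9 with shAhR-2. In BE2C the shAhR-2 libraries lay far below those of shAhR-1, and in Kelly both hairpin groups overlapped each other below the controls. IMP4 changed by −0.47 ± 0.045 and −1.86 ± 0.049 in BE2C and by −0.48 ± 0.052 and −0.48 ± 0.052 in Kelly. RRP9, a protein of the snoRNP that base-pairs with the precursor, was at 42.7, 41.1 and 40.4 CPM in BE2C controls, 32.3, 31.8 and 35.9 with shAhR-1 and 13.05, 13.5 and 11.9 with shAhR-2, and at 71.4, 68.5 and 71.6, 61.1, 57.6 and 57.2 and 52.2, 47.6 and 50.2 in Kelly. The groups of each line were separate, in the order control, shAhR-1, shAhR-2. It changed by −0.31 ± 0.062 and −1.69 ± 0.067 in BE2C and by −0.27 ± 0.043 and −0.50 ± 0.044 in Kelly.

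NAT10, the RNA acetyltransferase of small-subunit rRNA, fell in 3 of the 4 comparisons with control. It was at 76.8, 75.6 and 79.6 CPM in BE2C controls, 48.98, 51.2 and 49.9 with shAhR-1 and 47.9, 46.02 and 48.3 with shAhR-2, and at 108, 115 and 110.2, 62.6, 66.5 and 65.8 and 112, 114 and 109.5 in Kelly. The Kelly shAhR-2 libraries lay among the controls, and all other hairpin libraries were below their controls. The changes were −0.63 ± 0.044 and −0.71 ± 0.044 in BE2C and −0.77 ± 0.037 and, not called, 0.0087 ± 0.035 in Kelly. TSR1, a late-acting factor related to GTPases, was at 127, 131 and 127 CPM in BE2C controls, 89.4, 89.2 and 91.5 with shAhR-1 and 116, 116 and 111 with shAhR-2, and at 133, 128 and 129, 95.1, 97.7 and 100.1 and 184, 187 and 184 in Kelly. All groups were separate. The libraries labelled shAhR-1 were the lowest in both lines, and shAhR-2 was below controls in BE2C and above them in Kelly. TSR1 changed by −0.51 ± 0.036 and −0.16 ± 0.035 in BE2C and by −0.41 ± 0.033 and 0.51 ± 0.032 in Kelly, with 20.8% of its exonic bases shared with SGSM2 and SRR.

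NOP14, a processome scaffold, was at 113, 115 and 116 CPM in BE2C controls, 109, 121 and 111 with shAhR-1 and 54.2, 56.2 and 56.8 with shAhR-2, and at 44.7, 45.99 and 46.9, 58.03, 56.02 and 58.3 and 48.3, 47.3 and 47.3 in Kelly. shAhR-1 overlapped the controls in BE2C and was above them in Kelly, and shAhR-2 was lower in BE2C alone, with Kelly just above control. It changed by −1.04 ± 0.041 in BE2C with shAhR-2 and by 0.33 ± 0.045 in the Kelly libraries labelled shAhR-1, and was not called in the other comparisons with control (−0.015 ± 0.040 in BE2C with shAhR-1 and 0.055 ± 0.045 in Kelly with shAhR-2); 17.1% of its exonic bases lie under the antisense gene NOP14-AS1. RRP12, which helps export the small subunit, was at 99.2, 104 and 94.99 CPM in BE2C controls, 86.98, 83.3 and 79.5 with shAhR-1 and 53.1, 51.3 and 48.9 with shAhR-2, and at 119.5, 115 and 123, 82.4, 79.8 and 75.8 and 103, 103 and 107 in Kelly. shAhR-2 was the lowest group in BE2C and the libraries labelled shAhR-1 the lowest in Kelly, with no overlap. RRP12 changed by −0.26 ± 0.044 and −0.96 ± 0.045 in BE2C and by −0.59 ± 0.037 and −0.19 ± 0.036 in Kelly. UTP4 and UTP20, 2 processome proteins whose E-boxes are shown above, fell in all 4 comparisons: UTP4 by 0.34 and 0.96 in BE2C and 0.21 and 0.38 in Kelly (log2), and UTP20 by 0.51, 1.14, 0.33 and 0.37 in the same order. PNO1, a late RNA-binding factor, fell by 0.35, 1.04, 0.46 and 0.47 in that order. HEATR1, a processome protein, fell in BE2C (−0.31 ± 0.033 and −0.65 ± 0.033) and in the Kelly libraries labelled shAhR-1 (−0.50 ± 0.031), and its value in Kelly with shAhR-2 was −0.032 ± 0.030, not called; 23.2% of its exonic bases are shared with LGALS8. WDR43, another processome protein, fell with shAhR-2 in both lines (−0.70 ± 0.036 and −0.17 ± 0.032) and in BE2C with shAhR-1 (−0.17 ± 0.036).

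Among large subunit assembly factors, 9 of 16 fell and 1 rose in BE2C with shAhR-1 (median −0.12), and 15 fell and 1 rose with shAhR-2 (median −0.75). In Kelly 10 fell and 2 rose in the libraries labelled shAhR-1 (median −0.13), and 12 fell and 3 rose with shAhR-2 (median −0.23). Of all genes tested 27.1% fell and 25.2% rose with shAhR-1 in BE2C, and 37.2% and 38.0% with shAhR-2. The Kelly shares were 31.0% and 29.6% in the libraries labelled shAhR-1 and 38.2% and 37.2% with shAhR-2. BOP1, PES1 and WDR12 form 1 complex (PeBoW) that matures the large-subunit rRNA. BOP1 was at 64.1, 65.6 and 64.9 CPM in BE2C controls, 61.2, 69.98 and 62.9 with shAhR-1 and 32.9, 32.6 and 29.5 with shAhR-2, and at 135, 131 and 138, 114, 118 and 115 and 78.7, 81.7 and 82.5 in Kelly. In BE2C the shAhR-1 libraries overlapped the controls and shAhR-2 was far lower, while in Kelly the 3 groups stepped down without overlap. BOP1 changed by −1.04 ± 0.053 in BE2C with shAhR-2 and by −0.22 ± 0.034 and −0.73 ± 0.035 in Kelly, and its value in BE2C with shAhR-1 was −0.0046 ± 0.051, not called. Its partners moved less evenly. PES1 changed by −0.37 ± 0.034 and −0.92 ± 0.034 in BE2C and by −0.22 ± 0.031 and −0.082 ± 0.031 in Kelly, the last not called without Kelly control 1 or without shAhR-2 library 3. WDR12 fell in BE2C with shAhR-2 (−0.31 ± 0.037) and in the Kelly libraries labelled shAhR-1 (−0.18 ± 0.033), rose in Kelly with shAhR-2 (0.14 ± 0.033) and was not called in BE2C with shAhR-1 (−0.017 ± 0.037).

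RRS1, which brings a ribosomal protein and rRNA complex into the large subunit, was at 52.3, 48.5 and 48.5 CPM in BE2C controls, 33.4, 34.5 and 32.9 with shAhR-1 and 26.6, 26.8 and 24.2 with shAhR-2, and at 42.7, 39.5 and 44.3, 31.2, 33.6 and 29.7 and 39.7, 41.1 and 41.3 in Kelly. The Kelly shAhR-2 libraries lay within the range of the controls, and every other hairpin group was below its controls. RRS1 changed by −0.42 ± 0.055 in the Kelly libraries labelled shAhR-1, and its value with shAhR-2 there was −0.050 ± 0.053, not called. DDX18, an RNA helicase, was at 195, 192 and 186 CPM in BE2C controls, 108, 109 and 112 with shAhR-1 and 115, 118 and 116 with shAhR-2, and at 125, 125 and 125, 77.7, 84.7 and 85.02 and 97.98, 99.6 and 102 in Kelly. Controls were highest and the libraries labelled shAhR-1 lowest in both lines, with no overlap. DDX18 had the largest fall of the set in BE2C with shAhR-1, −0.80 ± 0.034, and changed by −0.72 ± 0.034 with shAhR-2 and by −0.60 ± 0.036 and −0.32 ± 0.035 in Kelly. URB2, a factor of early large-subunit particles, was at 104, 108 and 102 CPM in BE2C controls, 81.03, 82.8 and 90.7 with shAhR-1 and 40.3, 39.5 and 41.1 with shAhR-2, and at 110.1, 112 and 112, 106, 102 and 99.7 and 56.7, 55.3 and 56.8 in Kelly. The groups stepped down in the order control, shAhR-1, shAhR-2 in both lines without overlap. Its changes were −0.30 ± 0.043 and −1.38 ± 0.045 in BE2C and −0.11 ± 0.036 and −0.99 ± 0.037 in Kelly.

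PPAN, a homolog of a yeast large-subunit factor, was the member that rose in all 4 comparisons. It was at 21.5, 22.4 and 19.2 CPM in BE2C controls, 23.3, 25.9 and 23.3 with shAhR-1 and 24.4, 24.7 and 23.97 with shAhR-2, and at 10.1, 11.1 and 10.3, 11.1, 13.2 and 11.8 and 24.6, 23.3 and 25.04 in Kelly. Both BE2C hairpin groups lay above the controls and overlapped each other, and in Kelly only shAhR-2 was clear of the controls. Its changes were 0.20 ± 0.070 and 0.21 ± 0.069 in BE2C and 0.20 ± 0.084 and 1.21 ± 0.078 in Kelly. 59.8% of its exonic bases are shared with P2RY11 and the read-through gene PPAN-P2RY11, so reads cannot be assigned to PPAN alone. The BE2C calls were lost without control 3, the shAhR-1 call also without shAhR-1 library 2, and the call in the Kelly libraries labelled shAhR-1 without control 1 or 3 or the second library so labelled. NOP2, an rRNA methyltransferase, was the lowest member at 4.66, 3.00 and 4.34 CPM in BE2C controls, 4.34, 4.05 and 3.89 with shAhR-1 and 3.33, 3.13 and 2.44 with shAhR-2, and at 6.13, 5.36 and 5.90, 7.17, 7.38 and 7.29 and 6.80, 7.44 and 7.48 in Kelly. The BE2C controls overlapped each hairpin group, shAhR-2 lay below shAhR-1 there, and both Kelly hairpin groups were above the controls. NOP2 changed by −0.43 ± 0.17 in BE2C with shAhR-2 (adjusted p = 0.0247) and by 0.33 ± 0.11 and 0.32 ± 0.11 in Kelly, and these calls were lost without BE2C control 1 or 3 or shAhR-2 library 3, and without Kelly control 2.

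EBNA1BP2, whose promoter E-box is shown above, fell by 0.34 and 1.60 in BE2C and by 0.26 and 0.92 in Kelly (log2), with 20.5% of its exonic bases shared with other genes. The remaining factors fell in both lines with shAhR-2. For BRIX1 the 2 lines gave nearly equal values, −0.45 ± 0.042 in BE2C and −0.46 ± 0.044 in Kelly, and for MRTO4, which holds the place of a ribosomal stalk protein, they were −0.79 ± 0.047 and −0.40 ± 0.035. NIP7 changed by −0.71 ± 0.052 and −0.30 ± 0.048 (20.2% of exonic bases shared with COG8), NOC2L by −0.75 ± 0.033 and −0.33 ± 0.028, and NOC3L by −0.76 ± 0.045 and −0.17 ± 0.044. NOP16 changed by −0.71 ± 0.047 and −0.16 ± 0.054 and RRP1B by −0.81 ± 0.033 and −0.072 ± 0.029. The Kelly values of the last 2 genes were small: the NOP16 libraries overlapped the controls and the call was lost without Kelly control 3, and that of RRP1B was lost without Kelly control 1 or 3 or shAhR-2 library 1 or 2. In the libraries labelled shAhR-1, RRP1B (−0.20 ± 0.033) and MRTO4 (−0.15 ± 0.046, lost without control 3) fell in BE2C and were not called in Kelly (0.021 ± 0.030 and −0.057 ± 0.035). NOC2L fell slightly there in both lines (−0.083 ± 0.032 and −0.075 ± 0.028), calls lost without BE2C control 1 or 3 or shAhR-1 library 3, and without Kelly control 3 or the first library labelled shAhR-1. NOP16 fell by 0.21 in BE2C and by 0.14 in Kelly, the latter lost without Kelly control 1 or 3 or the first or second library labelled shAhR-1. NOC3L fell in Kelly (−0.18 ± 0.044) and was not called in BE2C (−0.097 ± 0.044), and NIP7 and BRIX1 were called in neither line in the libraries labelled shAhR-1 (0.041 ± 0.051 and −0.055 ± 0.048 for NIP7, −0.083 ± 0.042 and −0.030 ± 0.044 for BRIX1).

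The 6 multifunctional nucleolar proteins include the most abundant members. Their sum was 49.9% ± 0.745 of control in BE2C with shAhR-2 and 93.9% ± 1.24 in Kelly with shAhR-2. The Kelly sum holds the rise of NPM1 from 2105 to 2364 CPM (means), while NCL, GNL3, LYAR and PA2G4 fell and DDX21 was not called. NPM1 (chromosome 5, 171387116 to 171411137, plus strand), nucleophosmin, a histone chaperone of the granular part of the nucleolus, was at 1715, 1693 and 1733 CPM in BE2C controls, 1394, 1431 and 1411 with shAhR-1 and 1008, 970.5 and 993 with shAhR-2. In Kelly it stood at 2110.3, 2105 and 2101 CPM in controls, 1556, 1594 and 1655 in libraries labelled shAhR-1 and 2352, 2348 and 2392 with shAhR-2. No groups overlapped. The libraries labelled shAhR-1 were below controls in both lines, and shAhR-2 was the lowest group in BE2C and the highest in Kelly. NPM1 changed by −0.28 ± 0.025 and −0.79 ± 0.025 in BE2C and by −0.39 ± 0.025 and 0.17 ± 0.025 in Kelly; 45 annotated pseudogenes carry its name, so the split of its reads is uncertain. NCL (chromosome 2, 231453531 to 231483641, minus strand), nucleolin, was at 2834, 2833 and 2853 CPM in BE2C controls, 2351, 2339 and 2327 with shAhR-1 and 1283, 1250.4 and 1256 with shAhR-2, and at 1981, 1913 and 1943, 1575, 1602 and 1640.3 and 1532, 1472 and 1534 in Kelly. Controls, shAhR-1 and shAhR-2 followed in descending order without overlap in both lines. NCL changed by −0.28 ± 0.023 and −1.17 ± 0.024 in BE2C and by −0.28 ± 0.025 and −0.36 ± 0.025 in Kelly.

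LYAR, a zinc finger protein that binds nucleolar chromatin, was at 58.9, 58.6 and 56.5 CPM in BE2C controls, 53.7, 52.1 and 52.4 with shAhR-1 and 29.1, 26.6 and 25.3 with shAhR-2, and at 17.7, 18.6 and 21.3, 24.7, 24.1 and 24.9 and 14.5, 13.4 and 14.8 in Kelly. In Kelly all 3 libraries labelled shAhR-1 were above the controls and shAhR-2 below them, and in BE2C both hairpin groups were below. LYAR changed by −0.14 ± 0.051 and −1.10 ± 0.053 in BE2C and by 0.36 ± 0.071 and −0.43 ± 0.074 in Kelly, the first lost without control 1 or 2 or shAhR-1 library 2. GNL3, the GTPase nucleostemin, was at 160.1, 163 and 164 CPM in BE2C controls, 160.0, 163 and 165 with shAhR-1 and 114, 111 and 112 with shAhR-2, and at 318, 315 and 317, 286, 289 and 291 and 281, 282 and 284 in Kelly. BE2C controls and shAhR-1 overlapped, and all other hairpin groups were lower than their controls. GNL3 changed by −0.53 ± 0.033 in BE2C with shAhR-2 and by −0.13 ± 0.027 and −0.17 ± 0.027 in Kelly, and its value in BE2C with shAhR-1 was 0.0036 ± 0.032, not called. DDX21, a helicase of RNA polymerase I and II transcription, was called in 1 comparison with control alone: it fell by 1.06 ± 0.027 in BE2C with shAhR-2 and stood at −0.060 ± 0.026, −0.058 ± 0.027 and −0.057 ± 0.027 in BE2C with shAhR-1 and in the Kelly libraries labelled shAhR-1 and shAhR-2. PA2G4, a growth-regulated binding partner of nucleolar RNA, fell by 0.22 and 0.96 in BE2C and by 0.15 and 0.62 in Kelly.

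The hairpin groups were also set against each other within a line. In BE2C 41 members were lower with shAhR-2 than with shAhR-1 and 2 were higher (background 35.9% and 36.5%; medians −0.63 for members and 0.0082 for all genes), and the counts were the same without the shAhR-2 library that stood apart. IMP4 (−1.39 ± 0.049) and RRP9 (−1.38 ± 0.067) were at the low end and TSR1 (0.35 ± 0.036) and DDX18 (0.088 ± 0.034) at the high end, the last lost without shAhR-1 library 1 or 2 or shAhR-2 library 2. In Kelly 21 members were lower with shAhR-2 than in the libraries labelled shAhR-1 and 14 were higher (46.7% and 31.1%, near the background of 39.3% and 38.2%), and the median was −0.032, beside −0.013 for all genes. TCOF1 (−0.96 ± 0.033) and URB2 (−0.87 ± 0.037) were lowest there, and PPAN (1.01 ± 0.078) and TSR1 (0.92 ± 0.033) highest. TSR1 was thus higher with shAhR-2 than in the libraries labelled shAhR-1 in both lines. NAT10 was higher with shAhR-2 in Kelly (0.78 ± 0.037) and not called between the hairpins in BE2C (−0.077 ± 0.045).

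Whether the lines responded differently was tested as the change in BE2C minus the change in Kelly. For shAhR-2 the difference was negative and called for 44 of 45 members and positive for 0 (also 0 at an unadjusted p under 0.05 and by DESeq2), where 25.8% of 17136 genes were negative and 28.8% positive; the median was −0.64 for the members and 0.047 for all genes. Only BRIX1 was not called (−0.0062 ± 0.064). IMP4 (−1.40 ± 0.073) and RRP9 (−1.21 ± 0.078) differed most, followed by NOP14 (−1.11 ± 0.059), PPAN (−1.02 ± 0.11) and DDX21 (−1.02 ± 0.037). NPM1 differed by −0.98 ± 0.035, having fallen in BE2C and risen in Kelly, and TCOF1 by −0.25 ± 0.047. For shAhR-1 10 members were negative and 10 positive, 22.2% each and near the background of 18.2% and 17.5%, with a median of 0.0040, beside 0.0045 for all genes. LYAR (−0.49 ± 0.086) and NOP14 (−0.33 ± 0.058) were at the negative end and RRP12 (0.34 ± 0.059) and BOP1 (0.22 ± 0.061) at the positive end. The Kelly side of this comparison rests on libraries in which AHR was not lower than in controls. In the BE2C libraries AHR was too low to be tested. Among the smaller shAhR-1 differences, NHP2 (0.20 ± 0.069), NAT10 (0.15 ± 0.057) and WDR43 (−0.15 ± 0.050) lost their call when single libraries were left out: BE2C control 3, BE2C shAhR-1 library 2, Kelly control 1 or the first library labelled shAhR-1 for NHP2, BE2C control 1 or 2, BE2C shAhR-1 library 2, Kelly control 2 or the first library labelled shAhR-1 for NAT10, and BE2C shAhR-1 library 3 or the second library labelled shAhR-1 for WDR43.

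**Figure D5:**
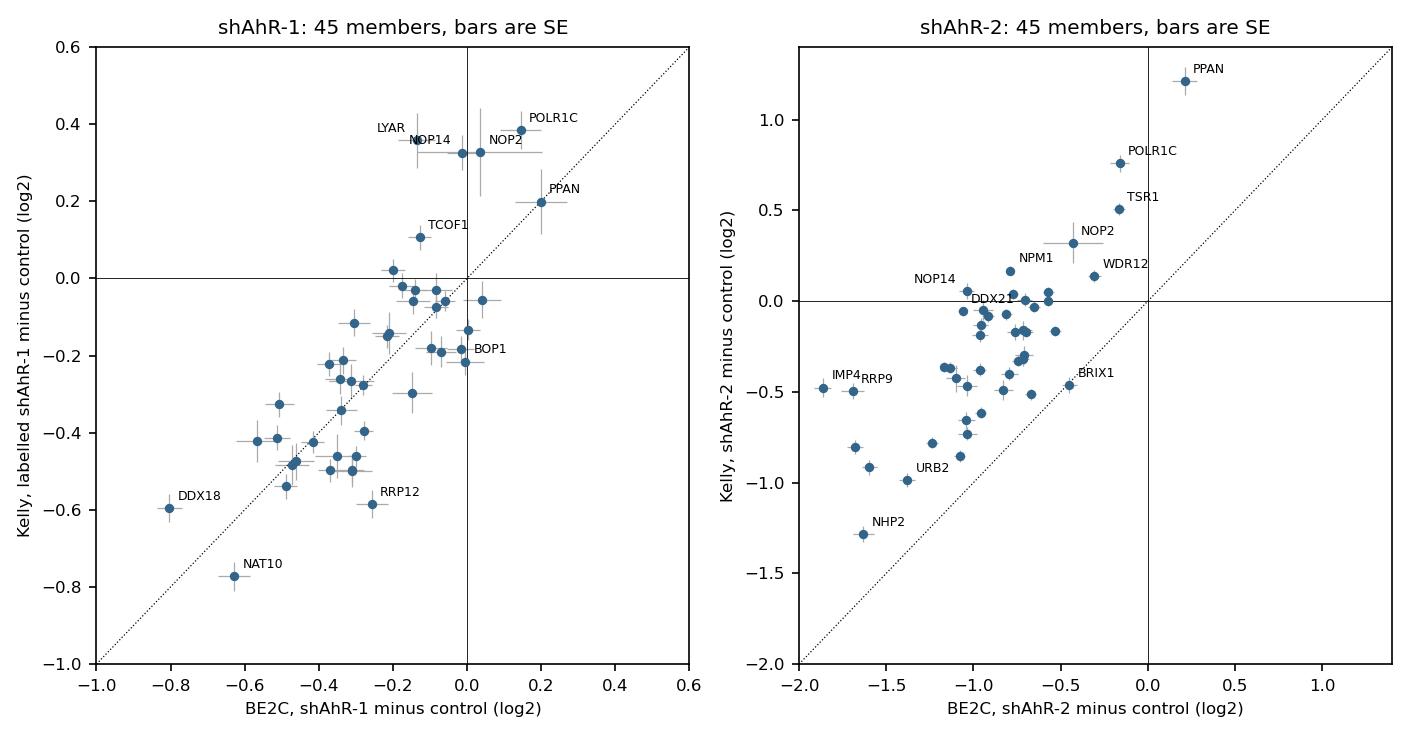
Log2 change against control in BE2C (x axis) and Kelly (y axis) for the 45 members, with shAhR-1 on the left and shAhR-2 on the right; bars are SE and the dotted line marks equal change (axis ranges differ between panels). With shAhR-1 points scatter around the line. With shAhR-2 they lie above it, BRIX1 (−0.45 and −0.46) excepted, so that values were lower in BE2C than in Kelly. Among them PPAN rose in both lines (0.21 and 1.21), and POLR1C, TSR1, NOP2, WDR12 and NPM1 fell in BE2C and rose in Kelly.

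The control level of the members also differed between lines. Compared directly, in 1 fit of both tables, 28 members were higher in BE2C controls than in Kelly controls and 12 were lower (background 37.2% and 39.0%), with medians of 0.22 for the members and −0.027 for all genes; line and table cannot be told apart here. LYAR was at 60.6, 60.1 and 58.05 CPM in BE2C and 17.3, 18.1 and 20.7 in Kelly, and NOP14 at 116, 118 and 119 and 43.6, 44.7 and 45.6, on library sizes scaled over all 18 libraries. These were the largest differences in favour of BE2C, at 1.68 ± 0.061 and 1.40 ± 0.041. BOP1 was at 66.02, 67.3 and 66.8 CPM in BE2C and 132, 127 and 134 in Kelly, and GNL3 at 165, 167 and 168 and 310.4, 306 and 309. Both were lower in BE2C, by −0.97 ± 0.043 and −0.89 ± 0.029, and the lines did not overlap for any of these 4 genes. Per kilobase of annotated exon, NPM1 had the highest control level of the members, at 448 CPM per kb in BE2C and 550.0 in Kelly, followed by NCL at 409.9 and 281. NOLC1 (156 and 99.3), DDX21 (155 and 88.2), NOP10 (125 and 99.4) and FBL (114 and 113) came next in BE2C, and NOP2 was lowest, at 0.854 and 1.24.

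Other genes of the pathway were counted from lists that hold none of the 45 members. The shares of all genes tested that fell and rose, to be read beside each count, were 27.1% and 25.2% with shAhR-1 and 37.2% and 38.0% with shAhR-2 in BE2C, and 31.0% and 29.6% in the libraries labelled shAhR-1 and 38.2% and 37.2% with shAhR-2 in Kelly. Of 46 other small subunit factors, the numbers that fell and rose were 28 and 6 with shAhR-1 and 41 and 3 with shAhR-2 in BE2C, and 28 and 7 in the libraries labelled shAhR-1 and 30 and 10 with shAhR-2 in Kelly. Named by the largest called change in each comparison, DDX49, a helicase, fell by 1.74 ± 0.047 in BE2C with shAhR-2, and WDR75, a processome protein, rose by 1.19 ± 0.046 there. RIOK1 and RIOK2, kinases of late small-subunit particles, went in opposite directions in BE2C with shAhR-1 (−1.27 ± 0.046 and 0.78 ± 0.097). In the Kelly libraries labelled shAhR-1 PWP2 changed by −0.94 ± 0.27 and BUD23 by 0.29 ± 0.035, and with shAhR-2 NOC4L changed by −1.26 ± 0.071 and NOB1, the endonuclease of the last small-subunit cut, by 1.19 ± 0.045. Of 47 other large subunit factors the numbers were 19 and 10 with shAhR-1 and 37 and 3 with shAhR-2 in BE2C, and 26 and 8 in the libraries labelled shAhR-1 and 17 and 13 with shAhR-2 in Kelly. DDX54, a helicase, had the largest fall with shAhR-2 in both lines (−2.09 ± 0.053 in BE2C and −1.94 ± 0.050 in Kelly). SPATA5 changed by −0.81 ± 0.065 in BE2C with shAhR-1, RRP15 by −1.11 ± 0.039 in the Kelly libraries labelled shAhR-1, and ZNF622, a late cytoplasmic factor, rose in Kelly by 0.39 ± 0.057 and 0.76 ± 0.056. SURF6 rose by 0.29 ± 0.071 in BE2C with shAhR-2, and NOL12 by 0.45 ± 0.19 with shAhR-1, a call lost in 7 of 9 runs that left out 1 library. In Kelly with shAhR-2 the large subunit counts were 36.2% and 27.7% of that list, neither above the share of all genes.

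Of 17 other genes of the RNA polymerase I machinery, the numbers that fell and rose were 8 and 4 with shAhR-1 and 13 and 3 with shAhR-2 in BE2C, and 8 and 2 in the libraries labelled shAhR-1 and 9 and 7 with shAhR-2 in Kelly. POLR1G, a polymerase I subunit, fell by 0.43 ± 0.10 and 1.12 ± 0.10 in BE2C and by 0.80 ± 0.073 in the Kelly libraries labelled shAhR-1. UBTF, which bends ribosomal DNA at its promoter, rose by 0.32 ± 0.044 in BE2C with shAhR-2 and by 0.42 ± 0.030 in the Kelly libraries labelled shAhR-1, and RRN3, the initiation factor that joins the polymerase to it, rose by 0.21 ± 0.047 in BE2C with shAhR-1. In Kelly with shAhR-2 POLR1D, like POLR1C a subunit shared with polymerase III, rose by 1.11 ± 0.038 and POLR2E, shared by all 3 polymerases, changed by −1.05 ± 0.041. Of 11 snoRNP assembly factors the numbers were 9 and 1 with shAhR-1 and 9 and 1 with shAhR-2 in BE2C, and 10 and 1 in the libraries labelled shAhR-1 and 7 and 3 with shAhR-2 in Kelly. RUVBL2, an ATPase of that machinery, changed by −1.68 ± 0.049 in BE2C with shAhR-2, ZNHIT3 by −0.50 ± 0.089 with shAhR-1, and NAF1, needed for box H/ACA particles, by −1.42 ± 0.069 in Kelly with shAhR-2. NOPCHAP1, a chaperone of NOP58, changed by −1.08 ± 0.070 in the Kelly libraries labelled shAhR-1 and by 0.37 ± 0.063 with shAhR-2. ZNHIT6 rose by 0.35 ± 0.068 and 0.15 ± 0.068 in BE2C and by 0.23 ± 0.044 in the Kelly libraries labelled shAhR-1, and the BE2C shAhR-2 call was lost in 7 of 9 runs that left out 1 library. Of 15 genes of the RNA exosome, which trims rRNA precursors, the numbers were 5 and 3 with shAhR-1 and 13 and 1 with shAhR-2 in BE2C, and 3 and 9 in the libraries labelled shAhR-1 and 13 and 1 with shAhR-2 in Kelly; this list rose more often than it fell in the Kelly libraries labelled shAhR-1. EXOSC5 fell in all 4 comparisons with control (−0.39 ± 0.064 and −1.19 ± 0.066 in BE2C, −0.37 ± 0.049 and −0.21 ± 0.048 in Kelly), EXOSC9 changed by −1.42 ± 0.047 and EXOSC4 by 0.65 ± 0.10 in Kelly with shAhR-2, and EXOSC7, C1D and MPHOSPH6 rose by 0.30 ± 0.066, 0.81 ± 0.077 and 0.61 ± 0.060 in BE2C with shAhR-1, BE2C with shAhR-2 and the Kelly libraries labelled shAhR-1.

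Introns of several members carry snoRNA genes. Of 22 such snoRNAs in the tables, 5 passed the filter in BE2C and 4 in Kelly, and none had over 66 counts in any library, so a change in most of them was not detectable at this depth. SNORA75, encoded in NCL, had 32, 22 and 23 counts in Kelly controls, 66, 43 and 49 in the libraries labelled shAhR-1 and 19, 29 and 17 with shAhR-2, a rise of 1.20 ± 0.34 in the former while NCL itself fell. SNORD69, encoded in GNL3, had 38, 45 and 39 counts in Kelly controls, 15, 28 and 37 in the libraries labelled shAhR-1 and 15, 19 and 30 with shAhR-2, where it changed by −0.996 ± 0.37, a call lost without shAhR-2 library 1. In BE2C the adjusted p of the 5 tested snoRNAs ran from 0.228 to 0.772 with shAhR-1 and from 0.127 to 0.955 with shAhR-2, and none was called.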

How the data were processed

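The deposited values were raw read counts per gene for the 18 libraries, in 1 table for each line. Per the submitters' processing notes, CASAVA 1.8.2, STAR 2.7.9a and GRCh38.p7 were used; details of counting, annotation and strand setting were not given in the sources used here. From the deposited counts each line was fitted alone with edgeR 4.0.16 (filterByExpr, TMM, glmQLFit, glmQLFTest on the 3 groups), over 15732 genes in BE2C and 15871 in Kelly, with Benjamini-Hochberg adjusted p below 0.05. Interactions and the control comparison came from 1 fit of all 18 libraries over 17136 genes. CPM values use TMM library sizes, and SE is the log2 change divided by the square root of F.

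The 45 members and the lists of other genes were chosen with earlier results of these data known. Levels in every library are given for 10 fixed members, and for the 2 called members with the largest fall and rise in each comparison; from each list the largest called fall and rise are named. Alternatives were RLE size factors, other filters, a replicate block, each library left out, only the groups compared, DESeq2 1.42.0, halved counts, no mitochondrial genes and all libraries in 1 fit. Gene models are from GENCODE release 29 and promoters from RefSeq. The scripts' statistics were tested on simulated data. R 4.3.3, limma 3.58.1, Python 3.11.15, pandas 2.3.3, numpy 2.4.6 and matplotlib 3.10.9 were used.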

Additional observations from a re-analysis of the deposited data

Results flagged for a closer look

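The change from control was compared between the lines. For shAhR-2, the change in BE2C less that in Kelly was negative for 44 members and positive for 0, where 25.8% and 28.8% of all genes were. For shAhR-1 it was negative for 10 and positive for 10 (edgeR quasi-likelihood interaction, n = 3 libraries per group; medians −0.64 for shAhR-2 and 0.0040 for shAhR-1), near the all-gene shares of 18.2% and 17.5%.

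Some members were called in opposite directions in the lines, and the interaction was called for each of them. With shAhR-2 NPM1 fell in BE2C and rose in Kelly, with a difference of −0.98 ± 0.035 (adjusted p = 7.42e-28), and the same held for POLR1C at −0.94 ± 0.075 (adjusted p = 2.94e-15), TSR1 at −0.69 ± 0.047 (adjusted p = 1.35e-17), NOP2 at −0.77 ± 0.20 (adjusted p = 0.00102) and WDR12 at −0.46 ± 0.050 (adjusted p = 3.54e-11). With shAhR-1 TCOF1 fell in BE2C and was higher in the Kelly libraries labelled shAhR-1, with a difference of −0.23 ± 0.046 (adjusted p = 7.47e-05), and so did LYAR, at −0.49 ± 0.086 (adjusted p = 8.16e-06). AHR was not lower in those Kelly libraries and did not pass the filter in BE2C, and the part of this in the differences was not tested. Calls of POLR1C in BE2C, TCOF1 in Kelly, LYAR in BE2C and NOP2 in both lines were lost in some runs that left out 1 library.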

How the results depend on the processing

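Leaving out 1 library at a time gave 30 to 35 members fallen and 1 to 2 risen in BE2C with shAhR-1, 43 to 44 and 0 to 1 with shAhR-2, 30 to 33 and 4 to 6 in the Kelly libraries labelled shAhR-1 and 29 to 32 and 5 to 6 with shAhR-2. Between hairpins the ranges were 40 to 41 lower and 1 to 2 higher in BE2C and 21 and 13 to 14 in Kelly, for the interaction 9 to 12 negative and 8 to 10 positive with shAhR-1 and 44 and 0 with shAhR-2, and between controls 11 to 12 lower and 28 to 29 higher. The riser of BE2C shAhR-2, PPAN, was not called without BE2C control 3. With no filter beyond a total count above 0, the risers in BE2C with shAhR-1 numbered 1, those between the BE2C hairpins 1 and the positive shAhR-1 interactions 6, and with all 18 libraries in 1 fit the risers between the BE2C hairpins numbered 1; the cause was not tested. Over the other settings (RLE size factors, a mean CPM of at least 1, only the groups compared, DESeq2, halved counts, no mitochondrial genes) the fallen numbered 32 to 35, 42 to 44, 32 to 33 and 29 to 32 in the 4 comparisons with control.

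Same-numbered libraries of different groups did not deviate together (correlations −0.044 to 0.045 over 18 pairs, none over 0.1). These correlations run over all tested genes and cannot settle whether same-numbered libraries were grown or prepared together. With the replicate number as a block, 33, 44, 32 and 31 members fell and 2, 1, 6 and 6 rose in the comparisons with control, 41 and 21 were lower and 2 and 14 higher between hairpins in BE2C and Kelly, 10 and 44 interactions were negative and 10 and 0 positive, and 12 members were lower and 29 higher in BE2C controls.

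No value of a single gene that was called changed sign. Of 8278 values of single genes under all settings, 103 lost a call and 17 gained one. Low counts are mostly even (68.3% to 72.5% of counts of 1 to 20), and counting depth limits NOP2 and the snoRNAs. No rRNA was measured, and levels are relative to the other transcripts of a library.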

Other observations

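The other ribosome biogenesis genes were also set against each other between lines and hairpins. For shAhR-2 the change in BE2C minus that in Kelly was negative for 34 and positive for 3 of 46 other small subunit factors, and the same numbers were 37 and 0 of 47 other large subunit factors, 9 and 0 of 17 genes of the RNA polymerase I machinery, 5 and 1 of 11 snoRNP assembly factors and 7 and 3 of 15 exosome genes (edgeR quasi-likelihood, adjusted p below 0.05). All genes tested gave 25.8% negative and 28.8% positive. Medians of the log2 difference ranged from −0.44 for the small subunit list to −0.12 for the exosome.

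In the Kelly libraries, exosome genes separated the hairpins: 12 of 15 were lower and 2 higher with shAhR-2 than in the libraries labelled shAhR-1 (median −0.55; all genes 39.3% lower and 38.2% higher). Other large subunit factors were lower in 14 and higher in 22 of 47 cases (median 0.070). In BE2C the exosome numbers were 14 and 1 (median −0.58) and those of the large subunit list 37 and 8 (median −0.27).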
